A study of Saccharomyces cerevisiae with 6 samples.

Results

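The 3' segment of the yeast 18S ribosomal RNA (rRNA) gene is described here at single-nucleotide resolution. It was defined by position, as every row annotated as 18S from position 1601 to position 2500 of the transcribed ribosomal DNA (rDNA), which gave 900 of the 6858 positions measured, or 13.1% of them. Positions are counted from the first transcribed nucleotide, so position 1601 is nt 901 of 18S and position 2500 is nt 1800, the annotated 3' end of mature 18S. On build R64 the segment lies on the minus strand at chrXII:465070-465969, within the exon of RDN18-2, whose 18S gene spans chrXII:465070-466869. The genome carries a second annotated copy, RDN18-1, and the rDNA is repeated, so a read from any repeat stands for all of them.

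RNA polymerase I (Pol I) was immunoprecipitated from budding yeast, Saccharomyces cerevisiae, and the 3' ends of the RNA it held were sequenced, a method called native elongating transcript sequencing (NET-seq). The groups were paf1△ cells, which lack PAF1, cdc73△ cells, which lack CDC73, and wild-type (WT) cells, with 2 libraries each. All strains were grown at the same temperature, and the labels give no other allele or agent. The labels do not say that the 2 libraries of a genotype came from separate cultures. The p-values thus rest only on the spread between these libraries, which may be technical. The fits described below also share that spread across positions or windows.

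Pol I makes the long precursor from which the 18S, 5.8S and 25S rRNAs are released by cleavage. Paf1 and Cdc73 are subunits of the Paf1 complex, which travels with RNA polymerases and acts on elongation. The nucleotides described here build much of the head of the small ribosomal subunit and its decoding centre, and the last of them form the mature 3' end, which the nuclease Nob1 makes in the cytoplasm. A high signal at a position means many RNA 3' ends there. In NET-seq such peaks are read as slow or paused polymerase, but the end of a processed RNA that comes down with the polymerase gives the same signal, and the deposited values do not separate the 2 sources.

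The sequences below carry the main differences and the features common to the genotypes. They are the RNA strand, 5' to 3', from the base column of the deposited tables. Capitals mark the stretch or positions described, and every line lies on the minus strand of chromosome XII, build R64.

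Stretch lower in both deletions, chrXII:465523-465571: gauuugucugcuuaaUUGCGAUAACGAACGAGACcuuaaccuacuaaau

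Uracil run, higher in both deletions, with the positions after it, chrXII:465789-465831: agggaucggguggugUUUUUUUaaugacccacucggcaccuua

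Shorter stretch lower in both deletions, chrXII:465287-465323: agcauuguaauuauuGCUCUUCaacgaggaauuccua

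Pair of positions higher in both deletions, chrXII:465617-465648: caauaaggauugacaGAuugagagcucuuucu

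Lowest stretch common to all libraries, chrXII:465660-465699: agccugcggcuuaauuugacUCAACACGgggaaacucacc

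The 3' end of 18S, with the last 5 positions that hold signal in capitals, chrXII:465070-465129: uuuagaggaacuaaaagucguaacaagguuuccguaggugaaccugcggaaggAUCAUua

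Each library was deposited at 1 fixed total, 1000000 over positions 1 to 6739, so every value is a part of that total and total Pol I occupancy was not measured. The libraries differed widely in depth. If the smallest value of a library is 1 read, the median position of the segment had 3563 and 1762 reads in paf1△, 2099.5 and 1588.5 in cdc73△, but only 51 and 25 in WT. Anything that went with depth or with a separate preparation of the WT libraries cannot be told apart from genotype in the comparisons with WT. The tables hold rDNA only, so the deleted genes themselves could not be checked in the libraries.

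The profiles of the 900 positions were nearly the same within a genotype and differed more between genotypes. Across these positions, which are neighbours and not independent, the Spearman rho between the 2 libraries of a genotype was 0.970 for paf1△, 0.988 for cdc73△ and 0.945 for WT. Between genotypes it was 0.773 to 0.824 for paf1△ with cdc73△, 0.648 to 0.723 for paf1△ with WT and 0.523 to 0.599 for cdc73△ with WT. Within this measure the deletion profiles lay closer to each other than either lay to WT.

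**Figure D1:**
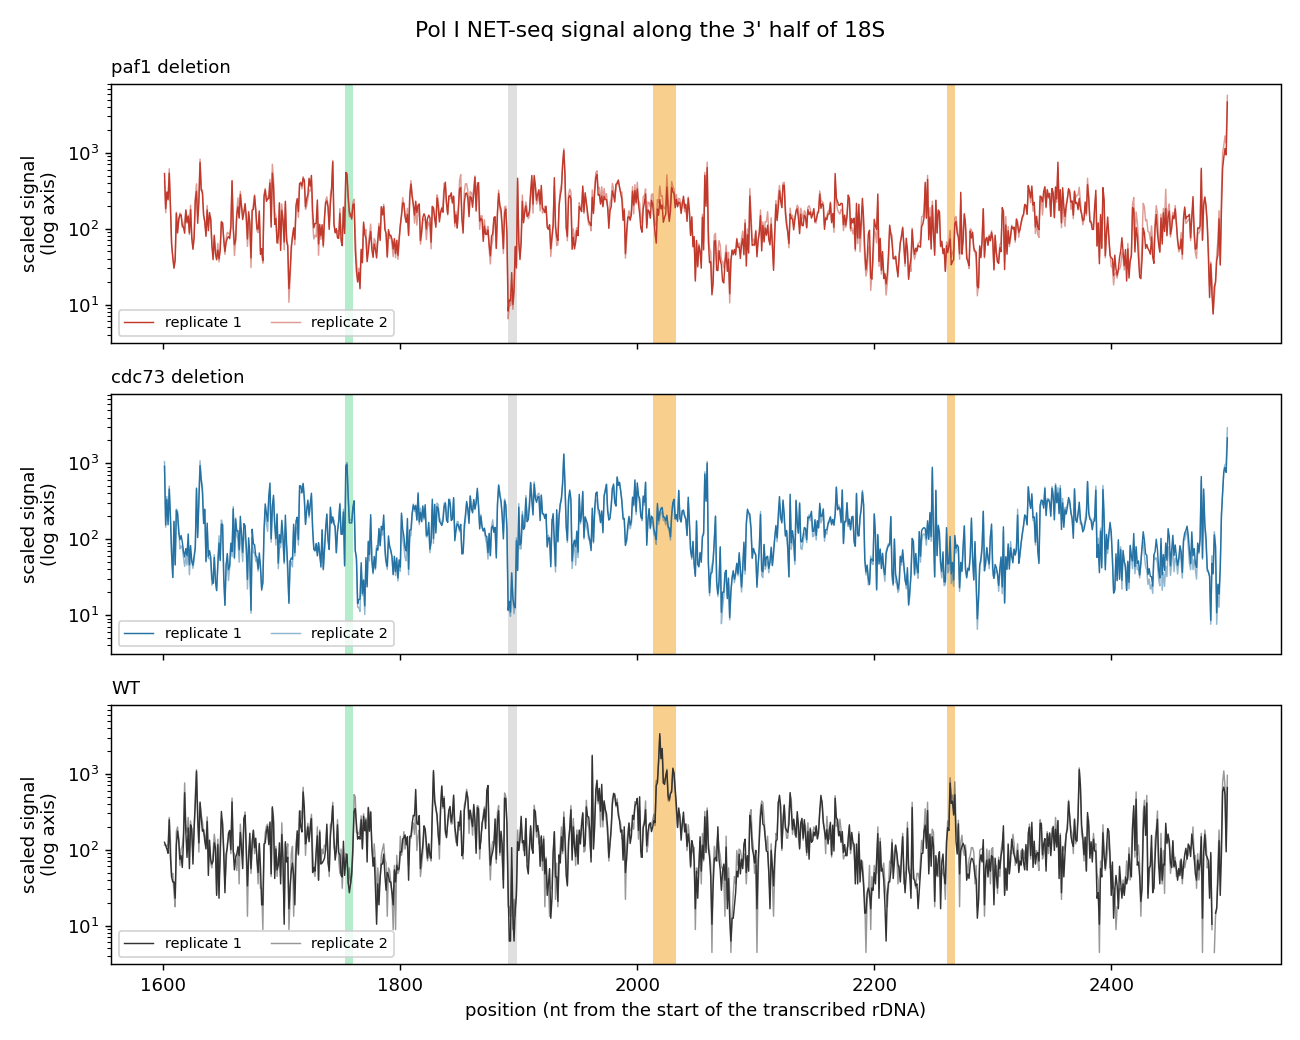
Scaled signal (y, log axis) at each of the 900 positions (x, nt from the start of the transcribed rDNA) in paf1△, cdc73△ and WT, with 1 line per library and values of 0 left out. Orange marks the 2 stretches lower in both deletions, green the uracil run and grey a stretch that is low in all libraries. The tall WT peak in the wide orange band has no counterpart in either deletion, and the right edge is highest in paf1△.

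The share of all signal that fell in the segment differed little between genotypes, although its distribution within the segment did. The share was 14.1% and 14.9% in the paf1△ libraries, 14.4% and 14.1% in cdc73△, and 14.9% and 15.5% in WT. The paf1△ and WT libraries overlapped, and the mean of cdc73△ minus that of WT was -0.965 percentage points, with no overlap (exact two-sided permutation test, p = 0.333, the smallest that 2 against 2 libraries can give). No comparison of single values below can pass 0.05 for that reason. The 3' segment held 0.871 and 0.968 times the signal of the 5' segment of 18S, positions 701 to 1600, in paf1△, against 1.03 and 1.08 in cdc73△ and 1.03 and 1.09 in WT.

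The profile was most even in paf1△ and least even in WT. The Gini coefficient over the 900 positions, which is 0 for a flat profile and nears 1 when few positions hold all signal, was 0.428 and 0.439 in paf1△, 0.461 and 0.484 in cdc73△ and 0.5002 and 0.496 in WT. The 3 genotypes did not overlap. The 9 highest positions of a library held 8.23% and 9.65% of the segment's signal in paf1△, 6.91% and 8.01% in cdc73△ and 9.91% and 9.49% in WT, and here paf1△ and WT overlapped.

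At single positions, limma was fitted to log2(signal + pseudocount) over all positions, and a position was called at a Benjamini-Hochberg adjusted p under 0.05. Of the 900 positions 898 could be tested. In paf1△ against WT, 239 were called higher and 168 lower, 26.6% and 18.7% of those tested, where 29.6% and 19.6% of all tested positions of the rDNA were. Both counts fell when either paf1△ library was left out and rose when either WT library was. A fit with 1 library in a genotype takes its spread from the other genotype alone. The fall therefore does not measure how far the counts rest on the paf1△ libraries. When the libraries were rescaled to equal medians, 168 were called higher and 217 lower, so 43.6% of the calls were higher under that scaling and 58.7% as deposited. The median log2 fold change of the segment was 0.10, beside 0.09 over all tested positions.

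In cdc73△ against WT, 286 positions were called higher and 267 lower, or 31.8% and 29.7% of those tested, beside 30.0% and 29.4% over the whole table. Both counts fell when either cdc73△ library was left out, a fit in which only the WT libraries still give a spread. The median log2 fold change was -0.01 in the segment and -0.00 over all tested positions. Both comparisons share the same WT libraries. In neither did the share of called positions in the segment stand far from the share over the whole table.

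Changes of at least 2-fold were fewer and, in paf1△, more often downward. The fold here is that of signal plus pseudocount, which understates the change of low positions, so these counts leave out some of them. In paf1△ against WT 45 positions were at least 2-fold higher and 69 at least 2-fold lower, where 7.33% and 7.59% of all tested positions were, and these counts make 5.01% and 7.68% of the segment. In cdc73△ against WT there were 95 and 103 such positions, with 10.6% and 11.3% over the whole table. The libraries of the 2 genotypes did not overlap at 661 positions in paf1△ against WT (73.6%, with 75.9% over the whole table) and at 733 in cdc73△ against WT (81.6%, with 81.2%).

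The largest fall below WT in each deletion lay in one compact stretch. From position 2014 to position 2032, nt 1314 to 1332 of 18S, all 19 positions were called lower in paf1△ and all 19 in cdc73△. The stretch was picked as the longest run of positions called lower in both deletions, so its totals describe the data and are no test. Its 19 positions summed to a scaled signal of 3607 and 4776 in paf1△, 3755 and 3426 in cdc73△ and 18921 and 18903 in WT. WT was thus several times above every deletion library, and the deletion libraries overlapped each other. The stretch held 2.56% and 3.20% of the segment's signal in paf1△, 2.61% and 2.42% in cdc73△ and 12.7% and 12.1% in WT.

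Within this stretch the WT signal peaked at position 2019, an adenine in the uugcgAuaacg part of the sequence above. Its signal was 242 and 364 in paf1△, 226 and 187 in cdc73△ and 3369 and 3134 in WT, which made it the highest position of the segment in WT. The log2 fold change was -3.26 (SE 0.23, adjusted p = 7.77e-05, limma) in paf1△ and -3.72 (SE 0.14, adjusted p = 0.000103, limma) in cdc73△. Position 2021, also an adenine, had 205 and 272 in paf1△, 261 and 221 in cdc73△ and 2149 and 2142 in WT, with log2 fold changes of -2.95 and -2.94.

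The neighbours followed the same order. Position 2018 had 150 and 219 in paf1△, 177 and 156 in cdc73△ and 1470 and 1469 in WT. Position 2020 had 182 and 265 in paf1△, 253 and 229 in cdc73△ and 1579 and 1651 in WT. Over the 19 positions the log2 fold change ran between -3.26 and -0.59 in paf1△ with a median of -1.68, and between -3.72 and -0.73 in cdc73△ with a median of -1.81, beside medians of 0.09 and -0.00 over all tested positions. Between the deletions 4 of the 19 were called higher in paf1△ and none lower, by limma. Of the 10 highest positions of the segment in WT, 6 lay in this stretch, and none of the WT 10 was among the 10 highest of either deletion.

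The reverse pattern stood at the run of 7 uracils from position 1754 to 1760, nt 1054 to 1060. All 7 were called higher in paf1△ and all 7 in cdc73△, with log2 fold changes of 0.83 to 2.13 in paf1△ and 1.09 to 2.99 in cdc73△. The run summed to 1999 and 1823 in paf1△, 2987 and 3146 in cdc73△ and 416 and 434 in WT. Here the 3 genotypes were apart, with cdc73△ highest.

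The first uracils of the run carried most of it. Position 1754 had 549 and 465 in paf1△, 914 and 947 in cdc73△ and 68.7 and 88.5 in WT, with log2 fold changes of 2.13 (SE 0.15, adjusted p = 7.77e-05, limma) and 2.99 (SE 0.12, adjusted p = 0.000111, limma). Position 1755 had 527 and 452 in paf1△, 957 and 1019 in cdc73△ and 87.5 and 84.1 in WT. Both positions were called lower in paf1△ than in cdc73△ (log2 -0.82 and -0.95), as was position 1756 (log2 -0.48), and the other 4 uracils were not called between the deletions. In WT the signal instead stood after the run.

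From position 1762 to 1776, nt 1062 to 1076, all 15 positions were called lower in both deletions. They summed to 812 and 951 in paf1△, 783 and 722 in cdc73△ and 3053 and 3479 in WT. The log2 fold changes ran between -2.004 and -0.583 in paf1△ and between -2.18 and -0.57 in cdc73△. At position 1761, which separates the 2 runs, the signal was 211 and 244 in paf1△, 320 and 312 in cdc73△ and 319 and 531 in WT. The signal was therefore on the uracils in the deletions and on the bases just after them in WT.

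A shorter stretch later in the gene behaved like the long one. From position 2262 to 2268, nt 1562 to 1568, all 7 positions were called lower in both deletions, and they summed to 404 and 502 in paf1△, 428 and 332 in cdc73△ and 2786 and 3474 in WT. Position 2264, a uracil, had 72.8 and 94.8 in paf1△, 109 and 88.0 in cdc73△ and 756 and 885 in WT. Its log2 fold change was -2.72 (SE 0.15, adjusted p = 5.26e-05, limma) in paf1△ and -2.60 (SE 0.13, adjusted p = 0.00013, limma) in cdc73△. As with the long stretch, this one was picked for its calls and its totals are a description.

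**Figure D2:**
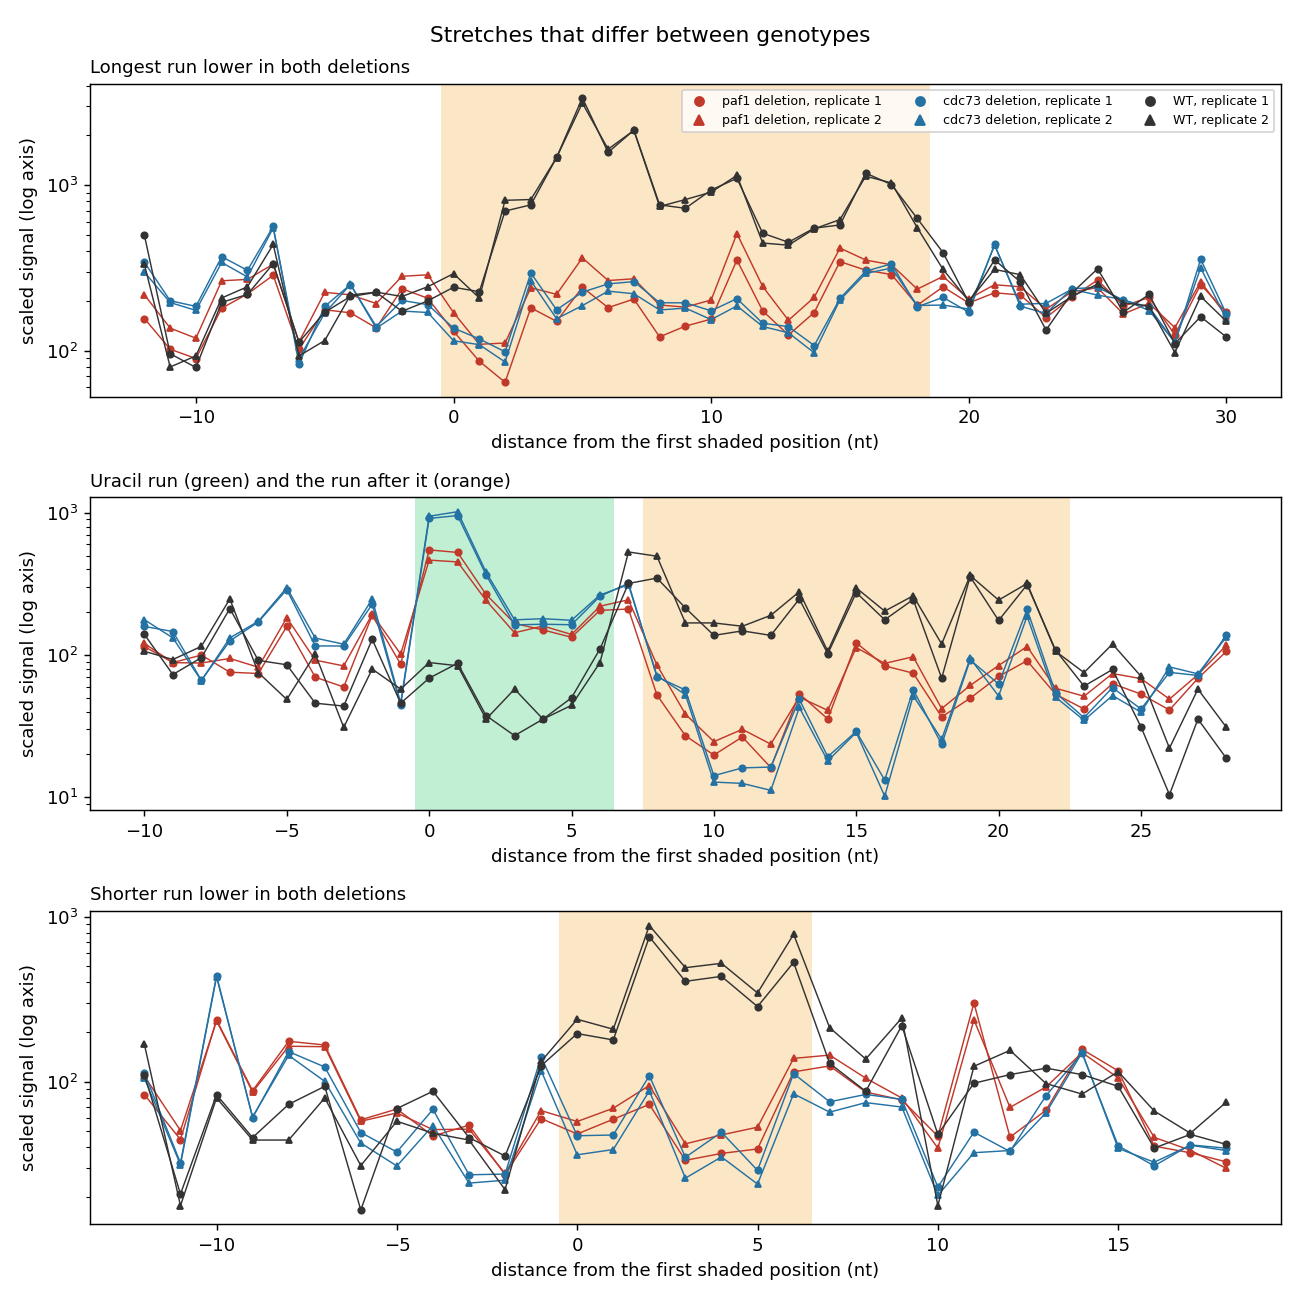
Scaled signal (y, log axis) by distance from the first shaded position (x, nt) around the long stretch lower in both deletions, the uracil run with the run after it, and the shorter stretch, with 1 line per library of paf1△ (red), cdc73△ (blue) and WT (black). The WT lines rise above the others within the orange shading, and the deletion lines rise above WT within the green shading of the uracils.

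Consecutive changes were common elsewhere too. Runs of at least 5 neighbouring called positions numbered 14 higher and 5 lower in paf1△ against WT, and 12 higher and 9 lower in cdc73△ against WT. The runs higher in paf1△ held 105 positions and the lower ones 55, or 11.7% and 6.12% of the segment, where such runs held 13.2% and 7.98% of all tested positions. In cdc73△ the higher runs held 112 positions and the lower ones 87, or 12.5% and 9.69%, where runs held 12.5% and 9.64% of all tested positions. In paf1△ against cdc73△ the higher runs held 83 positions and the lower ones 27, or 9.24% and 3.01%, beside 12.6% and 3.93%. The share of positions in runs thus lay close to or below that over the rDNA as a whole. Stretches from 1933 to 1943, 2326 to 2335, 2342 to 2351 and 2353 to 2360 were called higher throughout in both deletions, and those from 1869 to 1874 and 2103 to 2107 lower throughout in both.

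The run from 1933 to 1943 summed to 3836 and 4123 in paf1△, 4315 and 4306 in cdc73△ and 1212 and 1372 in WT. Its top was a guanine and adenine pair, nt 1237 and 1238. Position 1937 had 689 and 712 in paf1△, 533 and 605 in cdc73△ and 95.8 and 88.5 in WT, a log2 fold change of 2.42 (SE 0.13) in paf1△ and 2.17 (SE 0.12) in cdc73△. Position 1938 had 1070 and 1130 in paf1△, 1324 and 1294 in cdc73△ and 267 and 314 in WT, a log2 fold change of 1.77 (SE 0.16) and 2.02 (SE 0.13). Neither position was called between the deletions, with adjusted p of 0.0878 and 0.165 by limma.

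Positions outside these stretches fell as well. Position 1962, a uracil and the third highest of the segment in WT, had 259 and 323 in paf1△, 256 and 209 in cdc73△ and 1722 and 1766 in WT. Position 1828, a cytosine, had 185 and 190 in paf1△, 102 and 87.8 in cdc73△ and 1102 and 1049 in WT. Position 1874, a cytosine that ends the lower run from 1869, had 96.4 and 107 in paf1△, 66.5 and 54.6 in cdc73△ and 700 and 646 in WT. Each of the 3 was called lower in both deletions, with log2 fold changes of -2.41, -2.25 and -2.27 in paf1△ and -2.70, -3.01 and -2.78 in cdc73△.

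Other positions rose in both deletions. Position 2476, an adenine, had 624 and 580 in paf1△, 666 and 592 in cdc73△ and 148 and 164 in WT (log2 1.67 and 1.75). Position 1601, the guanine that opens the segment, had 531 and 420 in paf1△, 912 and 1048 in cdc73△ and 125 and 115 in WT (log2 1.63 and 2.64). Of the 10 largest rises over WT, 7 were named in both deletions, and of the 10 largest falls, 8. Since both comparisons use the same WT libraries, those overlaps are no independent evidence.

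The largest rise over WT in paf1△ lay at the very end of 18S. Position 2497, 3 nt before the annotated end, had 934 and 1344 in paf1△, 756 and 997 in cdc73△ and 93.7 and 111 in WT. Its log2 fold change was 2.96 (SE 0.19, adjusted p = 6.11e-05, limma) in paf1△ and 2.64 (SE 0.16, adjusted p = 0.000171, limma) in cdc73△. Position 2498 was the highest position of the segment in both deletions, with 4650 and 5678 in paf1△, 2155 and 2930 in cdc73△ and 658 and 952 in WT. Its log2 fold change was 2.63 (SE 0.31) in paf1△ and 1.61 (SE 0.24) in cdc73△, and 1.02 (SE 0.22, adjusted p = 0.00531, limma) in paf1△ over cdc73△. The last of these calls was lost without paf1△ replicate 2 (adjusted p = 0.0544, limma).

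The 3 positions before it differed less. Position 2494 had 625 and 989 in paf1△, 409 and 423 in cdc73△ and 591 and 775 in WT, so paf1△ overlapped WT and cdc73△ lay below (log2 -0.65, adjusted p = 0.0132, limma). Position 2495 had 867 and 1244 in paf1△, 761 and 829 in cdc73△ and 666 and 1089 in WT, with every group overlapping WT. Position 2496 had 1136 and 1662 in paf1△, 880 and 954 in cdc73△ and 537 and 690 in WT (log2 1.11 and 0.56). The calls of positions 2494 and 2496 in cdc73△ against WT were lost without either cdc73△ library, with adjusted p of 0.0818 and 0.0878 without replicate 1 and of 0.0732 and 0.143 without replicate 2.

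Together the last 10 positions of 18S held 6.07% and 7.64% of the segment's signal in paf1△, 3.63% and 4.52% in cdc73△ and 1.87% and 2.56% in WT. The 3 genotypes did not overlap, and each pairwise difference had an exact two-sided permutation p of 0.333. The signal here is bounded by the files. Positions 2499 and 2500, and position 2501 just beyond 18S, are listed at 0 in all 6 libraries, and so are 3 positions at the 3' end of 5.8S and 3 at the 3' end of 25S. The step that set them to 0 is not given in the sources used here, so the annotated end itself has no value. The share of ends of finished 18S RNA in the signal next to it was not tested.

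**Figure D3:**
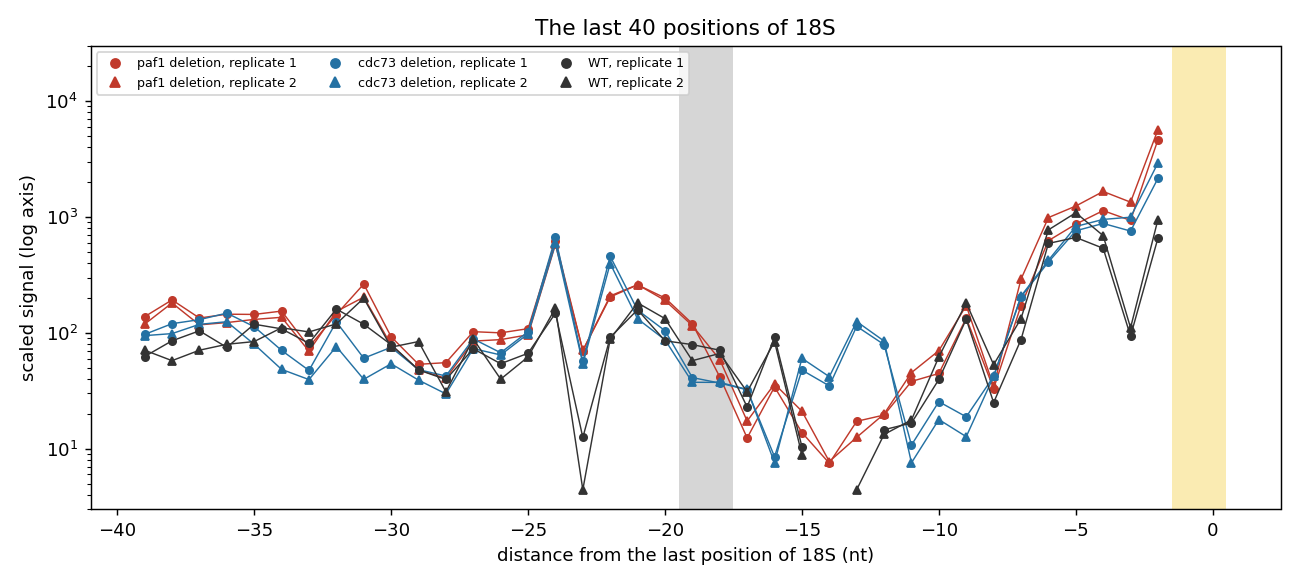
Scaled signal (y, log axis) over the last 40 positions of 18S by distance from its last position (x, nt), 1 line per library of paf1△ (red), cdc73△ (blue) and WT (black), with values of 0 left out. Grey marks the 2 adenines that are dimethylated in mature 18S and yellow the 2 positions listed at 0 everywhere; the deletion libraries are highest at the last position that holds signal, at 4650 and 5678 in paf1△ and at 2155 and 2930 in cdc73△.

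Just before this rise, all libraries were low. The adenines at positions 2481 and 2482, nt 1781 and 1782 in the gugAAcc part of the sequence, are dimethylated by Dim1 in mature 18S. The 8 positions after them held 0.149 and 0.174 times the mean signal of the segment in paf1△, 0.275 and 0.300 in cdc73△ and 0.147 and 0.160 in WT. The cdc73△ values were raised by position 2487, a cytosine with 17.2 and 12.5 in paf1△, 114 and 125 in cdc73△ and 0 and 4.43 in WT. With so few WT reads there, 0 says only that a WT level is too low to be seen at this depth.

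A stretch of 8 positions, given above as the lowest, was low in all libraries. It was lower than the 8 positions after the dimethylated adenines in every library but WT replicate 1, which had 0.158 here and 0.147 there. From position 1891 to 1898, nt 1191 to 1198, the signal was 0.137 and 0.115 times the segment's mean in paf1△, 0.165 and 0.171 in cdc73△ and 0.158 and 0.131 in WT. The 8 positions before them stood at 1.01 and 0.962 times the mean in paf1△, 1.75 and 1.85 in cdc73△ and 1.43 and 1.45 in WT. The uracil that opens the stretch, nt 1191, becomes the hypermodified acp3-pseudouridine of mature 18S. Whether the modification, or that of the adenines near the 3' end, has a part in the low signal was not tested.

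Where the signal returned after this stretch, the deletions differed by 1 nt. Position 1899, a guanine, had 461 and 416 in paf1△, 38.6 and 39.1 in cdc73△ and 127 and 181 in WT. Position 1900, the next guanine, had 67.8 and 63.3 in paf1△, 262 and 293 in cdc73△ and 97.9 and 97.4 in WT. Position 1899 was the largest rise of paf1△ over cdc73△ (log2 2.49, SE 0.11, adjusted p = 2.58e-06, limma), and position 1900 the second largest fall (log2 -1.53, SE 0.11, adjusted p = 1.38e-05, limma).

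Comparing paf1△ with cdc73△ directly avoids the shallow WT libraries. Of 898 positions 288 were called higher and 213 lower in paf1△, or 32.1% and 23.7%, where 34.4% and 20.6% of all tested positions of the rDNA were. After rescaling to equal medians the counts were 203 and 293, so 40.9% of the calls were higher under that scaling and 57.5% as deposited. Without cdc73△ replicate 2 the counts were 192 and 160. In signal plus pseudocount, 29 positions were at least 2-fold higher and 17 at least 2-fold lower. These are 3.23% and 1.89% of those tested, beside 4.28% and 2.53% of all tested positions. That scale understates the change of low positions. The libraries did not overlap at 718 positions (80.0%, with 79.8% over the whole table), and the median log2 fold change was 0.08.

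The largest differences between the deletions were at single bases. Position 1658, a uracil, had 428 and 419 in paf1△, 68.9 and 58.8 in cdc73△ and 425 and 478 in WT, so only cdc73△ stood apart there. Position 1743, an adenine, had 758 and 790 in paf1△, 196 and 193 in cdc73△ and 377 and 420 in WT, and here WT lay between the deletions. Position 2249, a cytosine, was the largest fall (log2 -1.77, SE 0.12, adjusted p = 1.09e-05, limma), with 201 and 230 in paf1△, 884 and 816 in cdc73△ and 148 and 186 in WT. Position 2273, an adenine, had 300 and 237 in paf1△, 49.4 and 37.1 in cdc73△ and 97.9 and 124 in WT.

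Calls between the deletions were split by the last base of the RNA, here as in the rDNA as a whole. The segment has 234 adenines, 182 cytosines, 245 guanines and 239 uracils. Of the 233 adenines tested, 115 were called higher and 16 lower in paf1△ than in cdc73△, or 49.4% and 6.87%, where 52.4% and 7.74% of the adenines of the whole rDNA were. Of the 238 uracils, 51 were higher and 93 lower, or 21.4% and 39.1%, where 22.7% and 30.4% of all uracils were. Thus the excess of higher adenines was not larger here than in the rDNA as a whole, and the share of lower uracils lay above that of the whole, a difference that was not tested. Of the cytosines 42 were higher and 44 lower (23.1% and 24.2%, with 27.5% and 25.9% of all cytosines). Of the guanines 80 were higher and 60 lower (32.7% and 24.5%, with 33.4% and 19.4% of all guanines). Among the 10 largest rises of paf1△ over cdc73△ were 5 adenines, and among the 10 largest falls there were 5 uracils and no adenine.

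The mean signal by base, taken relative to that of all 900 positions, was also set apart by genotype. At adenines it was 1.20 and 1.19 in paf1△, 0.962 and 0.961 in cdc73△ and 1.10 and 1.09 in WT. At uracils it was 1.03 and 1.03 in paf1△, 1.16 and 1.18 in cdc73△ and 0.972 and 0.997 in WT. At cytosines it was 0.944 and 0.937 in paf1△, 1.06 and 1.05 in cdc73△ and 1.03 and 1.03 in WT. At guanines it was 0.824 and 0.836 in paf1△, 0.837 and 0.826 in cdc73△ and 0.909 and 0.893 in WT. The 3 genotypes were apart at adenines, cytosines and uracils, and the deletions overlapped at guanines (exact two-sided permutation p = 0.333 where groups were apart).

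The uracil value of paf1△ rested on the end of the gene. Its difference from WT was 0.0451 with all positions and -0.0320 without the last 10, among which position 2498 is a uracil. The adenine order did not depend on single libraries: the paf1△ value exceeded that of cdc73△ by 0.230 to 0.234 with each library left out in turn. Against WT, 88 adenines were called higher and 34 lower in paf1△ (37.8% and 14.6%, with 37.2% and 18% of all adenines), while in cdc73△ 61 were higher and 81 lower (26.2% and 34.8%, with 26.5% and 36.1%). For uracils the counts were 47 higher and 49 lower in paf1△ (19.7% and 20.6%, with 25.8% and 19.6% of all uracils) and 97 higher and 53 lower in cdc73△ (40.8% and 22.3%, with 35.3% and 22.4%).

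**Figure D4:**
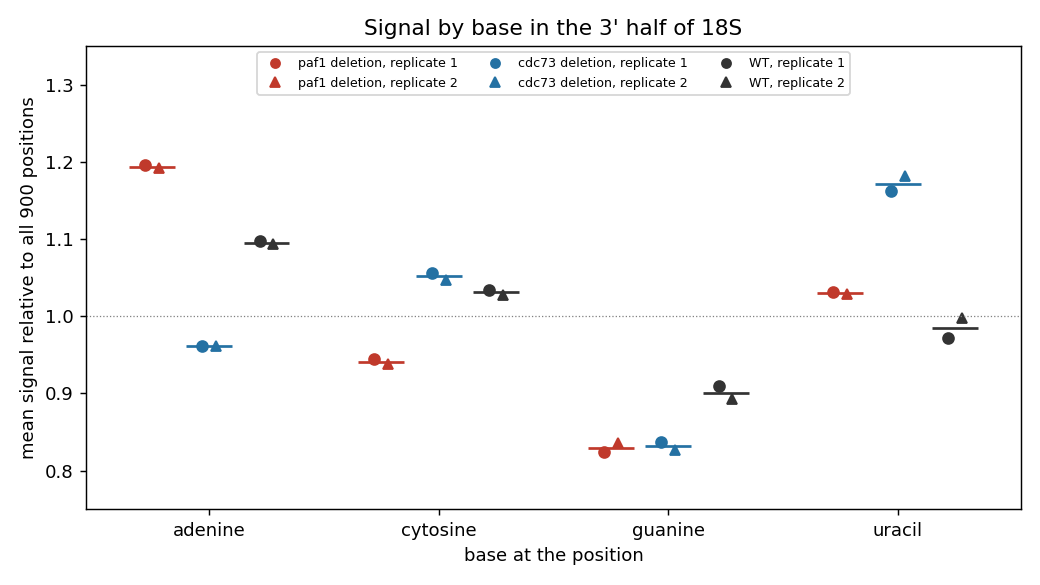
Mean signal at positions of each base relative to the mean of all 900 positions (y), for the 4 bases (x), with 1 point per library and a line at the mean of paf1△ (red), cdc73△ (blue) and WT (black); the y axis does not start at 0. Adenine is highest in paf1△ (1.20 and 1.19) and lowest in cdc73△, and uracil is highest in cdc73△ (1.16 and 1.18).

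In windows of 100 nt, fitted by limma as log2 shares of all signal over the 69 windows of the table, 3 of the 9 windows of the segment were called higher and 4 lower in paf1△ than in WT. Of all windows 42.0% were higher and 34.8% lower. In cdc73△ 3 were higher and 3 lower, beside 34.8% and 43.5%. Between the deletions 2 were higher and 0 lower in paf1△, beside 34.8% and 17.4%. The SE of paf1△ against WT was 0.0904 in each of the 9 windows. It was 0.0867 to 0.0924 in cdc73△ against WT and 0.0844 to 0.0857 between the deletions. Window p-values thus use a spread pooled over windows and do not measure how far the libraries of a single window lay apart. Leaving out WT replicate 1 left 1 window higher in paf1△ than in WT, and leaving out paf1△ replicate 2 or either cdc73△ library left 0 between the deletions.

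The window with the long lower stretch, from 2001 to 2100, held 1.28% and 1.54% of all signal in paf1△, 1.54% and 1.47% in cdc73△ and 2.88% and 2.92% in WT. Its log2 difference was -1.05 (SE 0.09, adjusted p = 4.24e-21, limma) in paf1△ and -0.94 (SE 0.09, adjusted p = 1.33e-12, limma) in cdc73△. Without the 19 positions of the stretch, an alternative added after seeing the data, it was -0.05 (adjusted p = 0.559, limma) in paf1△ and 0.16 (adjusted p = 0.0838, limma) in cdc73△. Since the 19 positions were picked for being lower, leaving them out was bound to reduce the fall of the window. These values are a description and no test.

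In the last window, from 2401 to 2500, paf1△ was called higher than WT and than cdc73△. It held 1.67% and 2.06% in paf1△, 1.20% and 1.20% in cdc73△ and 1.06% and 1.25% in WT. The log2 difference was 0.69 (SE 0.09, adjusted p = 2.14e-11, limma) for paf1△ over WT, 0.06 (SE 0.09, adjusted p = 0.537, limma) for cdc73△ over WT and 0.63 (SE 0.09, adjusted p = 1.63e-10, limma) for paf1△ over cdc73△. Without the last 10 positions these became 0.09 (adjusted p = 0.314, limma), -0.40 (adjusted p = 0.000133, limma) and 0.49 (adjusted p = 0.000751, limma). With positions capped at the 99th percentile of their library, the difference of paf1△ from WT was 0.16 (adjusted p = 0.0570, limma). The call over WT in paf1△ was thus lost without those 10 positions or with capping, while that between the deletions remained without the 10. Leaving out WT replicate 1 ended the call over WT (adjusted p = 0.0600, limma), and leaving out paf1△ replicate 2, cdc73△ replicate 1 or cdc73△ replicate 2 ended that between the deletions (adjusted p = 0.0506, 0.0789 and 0.0867, limma).

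Of the other windows, that from 2301 to 2400 was higher in both deletions, with 1.80% and 1.73% in paf1△, 1.90% and 1.97% in cdc73△ and 1.30% and 1.34% in WT (log2 0.42 and 0.55). The windows from 1801 to 1900 (log2 -0.34 and -0.28) and from 2201 to 2300 (log2 -0.40 and -0.46) were lower in both. The window from 1701 to 1800 was higher in both (log2 0.25 and 0.22), but both calls were lost without WT replicate 1 (adjusted p = 0.108 and 0.196, limma). The cdc73△ call was also lost with a replicate block (adjusted p = 0.0576, limma). Without paf1△ replicate 1 the paf1△ call had an adjusted p of 0.0712, and without cdc73△ replicate 1 or 2 the cdc73△ call had 0.119 or 0.0527, by limma. The window from 1901 to 2000 was called higher in cdc73△ (log2 0.28) and had a log2 difference of 0.12 in paf1△ (adjusted p = 0.223, limma). The first window, from 1601 to 1700, was called between the deletions (log2 0.19, adjusted p = 0.0479, limma), and that call was lost without any 1 of their 4 libraries (adjusted p of 0.0850 to 0.192), with shares of the 900 positions, with capping and with a replicate block (adjusted p = 0.103, 0.0629 and 0.119, limma). That from 2101 to 2200 was called lower in paf1△ (log2 -0.20, adjusted p = 0.0426, limma), a call lost without any 1 of its 4 libraries (log2 -0.22 to -0.18). The same call was lost with shares of the 900 positions (log2 -0.13, adjusted p = 0.207, limma) and with a variance trend (adjusted p = 0.0546, limma).

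**Figure D5:**
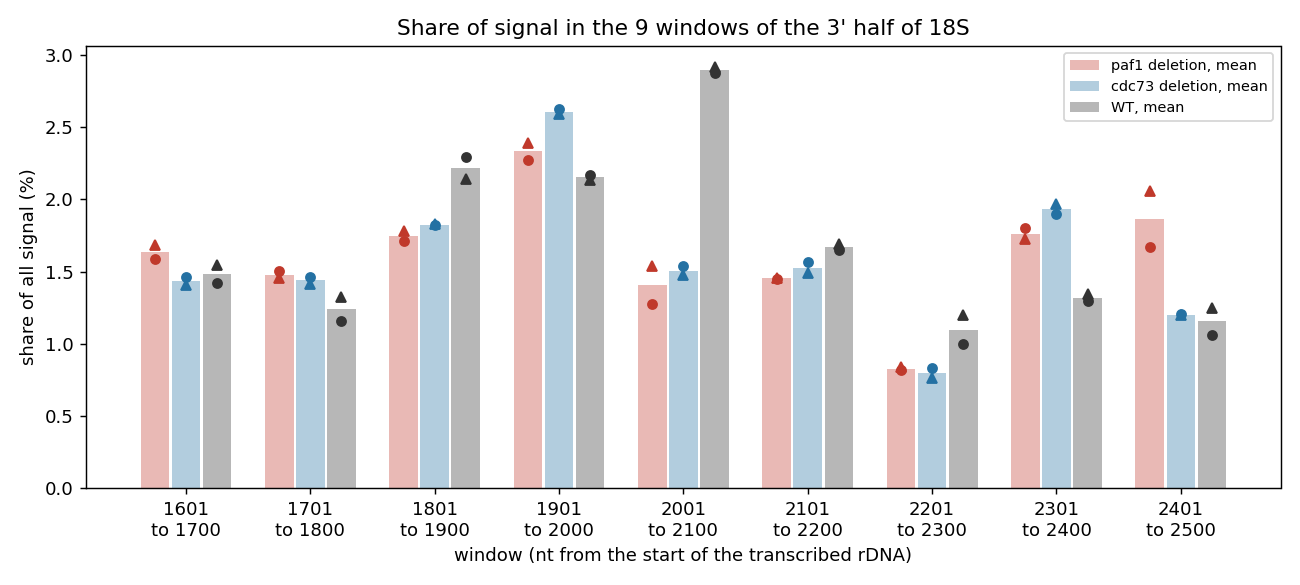
Share of all signal (y, %) in the 9 windows of 100 nt that make up the segment (x, nt from the start of the transcribed rDNA), with bars at the mean and 1 point per library of paf1△ (red), cdc73△ (blue) and WT (grey). WT stands highest in the window from 2001 to 2100 (2.88% and 2.92%), and paf1△ in the last (1.67% and 2.06%).

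Pause sites, taken as positions above the mean plus 3 SD of the 50 positions on each side in both libraries of a genotype, were mostly different positions in the deletions and in WT. There were 14 in paf1△, 13 in cdc73△ and 17 in WT, or 1.56%, 1.44% and 1.89% of positions, where over the whole rDNA 1.66%, 1.97% and 1.90% were pause sites. The deletions shared 5 sites, at positions 1631, 1938, 2057, 2059 and 2498, and only position 2498 was found in all 3 genotypes, where 0.204% of all positions were. Of the WT sites 16 of 17 (94.1%) were found in WT alone, where 76.2% of the WT sites of the whole rDNA were, a difference that was not tested. Among them were 2019 and 2021 in the long lower stretch and 2264 and 2268 in the shorter one. Also among them were 2494, 2495 and 2496, where the paf1△ signal overlapped that of WT or lay above it. The flanks of these 3 positions include position 2498, with 4650 and 5678 in paf1△ and 2155 and 2930 in cdc73△. A site found in WT alone was thus not always a position where WT was higher. Sites found in 1 deletion alone were 9 of 14 (64.3%) in paf1△ and 8 of 13 (61.5%) in cdc73△, beside 39.5% and 57.0% over the whole rDNA. In cdc73△ the first uracils of the run, 1754 and 1755, were pause sites.

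Calls in the 5' segment of 18S are given beside those of the 3' segment. In the 5' segment 429 of 900 positions were called higher and 150 lower in paf1△ than in cdc73△, with a median log2 fold change of 0.25, where the 3' segment had 288 and 213 of 898 and a median of 0.08. In paf1△ against WT the 5' segment had 290 higher and 126 lower, and the 3' segment 239 and 168. The difference between genotypes in the 3'-to-5' ratio of signal given above was -0.141 for paf1△ against WT and -0.133 for paf1△ against cdc73△, with no overlap and an exact two-sided permutation p of 0.333 each.

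The authors' deposited tables also give an unadjusted p-value for each position. In the authors' deposited table of paf1△ and WT, 182 of the 898 positions with a p-value were under 0.05 (20.3%, with 21.6% over the whole table). In the authors' deposited table of cdc73△ against WT there were 272 (30.3%, with 27.1%), and in that of paf1△ and cdc73△ 231 (25.7%, with 22.5%).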

How the data were processed

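Signal was deposited by the authors in 3 tables, 1 per pair of genotypes, with values per position scaled to a fixed total, 1000000 over positions 1 to 6739, which was checked in the files, and a library had the same values in both of its tables. Tools listed in the submitters' processing notes are STAR 2.7.1a, cutadapt 3.4, bedtools 2.28.0, SAMtools 1.6, FastQC 0.11.7, bcl2fastq 2.20.00 and R 4.3.2, with build R64. The linker carried a molecular identifier, per the labels' protocols. No source used here gives the use of identifiers or the placement of reads from repeats. Unadjusted is the p-value column that the authors deposited.

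The values are scaled and not counts, so the limma test foreseen for that case was used in place of a count test. Positions above 0 in at least 2 of 4 libraries were fitted on log2(signal + pseudocount), without a block, with lmFit and eBayes (trend on) of limma 3.58.1 under R 4.3.3, and p-values were adjusted by Benjamini-Hochberg over all positions. The pseudocount was 0.5 times the median of values above 0: 48.1 for paf1△ against WT, 44.3 for cdc73△ against WT and 47.4 for paf1△ against cdc73△. Log2 fold changes on this scale understate the change of low positions. Windows were fitted without trend. Single values per library (27 comparisons in all) had exact two-sided permutation tests, and no adjustment brings their smallest p under 0.333. Reads were recovered within 0.1 of whole numbers at 100.0% of positions in WT and at 99.9% and 100.0% in cdc73△. On these edgeR 4.0.16 called 311 positions of the segment higher and 269 lower in cdc73△ against WT, an alternative chosen after seeing the data. Total reads were 29671814 and 14203939.5 in paf1△, if the smallest value is 1 read, 18428847.5 and 14965806.5 in cdc73△ and 480708 and 226202 in WT. Python 3.11.15, numpy 2.4.6, pandas 2.3.3, scipy 1.17.1 and matplotlib 3.10.9 were used, and the fits were tested on simulated data.

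The positions named are, per comparison, the 10 strongest rises and 10 strongest falls among called positions with a mean at or above the median and no overlap, the 10 highest of each genotype, the last 10 of 18S and pause sites of all 3 genotypes. The stretches, and positions 1761, 2057, 2268 and 2487, were chosen after their values were seen. The segment and these rules were chosen with earlier results of these data known. Alternatives for the pseudocount, filter, scaling, window size, extreme positions, replicates and variance trend were run.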

Additional observations from a re-analysis of the deposited data

How the results depend on the processing

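The 2 libraries per genotype, the depth of WT and the fixed total of each library limit these results, and a p of 0.333 in a permutation test says nothing about stability. Of the values of named positions under the alternatives, 1332 kept their direction and their side of the threshold, 16 lost and 23 gained a call, and 13 changed direction. All 13 were at positions not called in the comparison concerned. Replicate numbers did not pair the libraries: the correlation of same-numbered deviations was 0.114 for paf1△ and WT, 0.0338 for cdc73△ and WT and -0.227 for paf1△ and cdc73△. With a replicate block, positions called higher and lower were 252 and 176 in paf1△ against WT, 297 and 284 in cdc73△ against WT and 270 and 197 in paf1△ against cdc73△, and 1 window was higher in paf1△ than in cdc73△. The block also ended the cdc73△ call of the window from 1701 against WT (0.22, adjusted p = 0.0576, limma) and that of the window from 1601 in paf1△ against cdc73△ (0.19, adjusted p = 0.119, limma). With crossed numbers as a block, added after seeing the data, the last comparison had 327 and 240 called positions. With each library left out in turn, positions called in paf1△ against WT ranged between 97 and 298 higher and between 86 and 218 lower, and in cdc73△ against WT between 157 and 337 and between 136 and 339. Windows higher in paf1△ than in WT ranged between 1 and 3, and those higher in paf1△ than in cdc73△ between 0 and 1. Windows of 50 nt gave 6 higher and 7 lower in paf1△ against WT, 6 and 6 in cdc73△ against WT and 2 lower in paf1△ against cdc73△. Shares of the total of the 900 positions, or capping at the 99th percentile, left 1 window higher in paf1△ than in cdc73△. Pause sites above 4 SD numbered 8 in paf1△ and 8 in cdc73△, and above 2 SD 26 in paf1△, 36 in cdc73△ and 43 in WT.

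Some differences changed direction. With capping these were uracil in paf1△ against WT (-0.0364), cytosine in cdc73△ against WT (-0.00833), guanine in paf1△ against cdc73△ (0.0231), the 3'-to-5' ratio in cdc73△ against WT (0.00529), the share of the segment in paf1△ against cdc73△ (-0.380) and the window from 2401 in cdc73△ against WT (-0.12). Capping also ended the call of the window from 2401 in paf1△ against WT (0.16, adjusted p = 0.0570, limma). Without the last 10 positions they were uracil in paf1△ against WT (-0.0320), guanine in paf1△ against cdc73△ (0.0238) and the window from 2401 in cdc73△ against WT (-0.40, adjusted p = 0.000133, limma). Without the 19 positions of the long stretch the window from 2001 in cdc73△ against WT was 0.16 (adjusted p = 0.0838, limma), where with them it was -0.94, and as a share of the 900 positions that from 1601 was 0.0452. At equal medians, log2 was -0.000731 at position 2494 in paf1△ against WT and, in paf1△ against cdc73△, -0.0608 at 2018, -0.0577 at 2030 and -0.14 at 2373. With each library left out in turn, differences that crossed 0 in paf1△ against WT ranged between -0.11 and 0.52 at 2494 and between -0.0641 and 0.61 at 2495. In cdc73△ against WT they ranged between -0.43 and 0.24 at 2495, -0.11 and 0.0113 in the window from 1601, -0.0587 and 0.18 in that from 2401, and -0.0411 and 0.0251 for the 3'-to-5' ratio. In paf1△ against cdc73△ they ranged between -0.11 and 0.32 at 2018, -0.33 and 0.12 at 2020, -0.19 and 0.15 at 2021, -0.17 and 0.25 at 2373, -0.24 and 0.0296 in the window from 2001, -0.00912 and 0.11 in that from 2201, -0.00720 and 0.00424 for guanine and -0.179 and 0.655 percentage points for the share of the segment. The cause of these changes was not tested.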

Other observations

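Between the deletions, neighbouring positions moved together in several parts of the segment. Runs of at least 5 positions called higher in paf1△ than in cdc73△ numbered 12 and held 83 positions. Runs called lower numbered 4 and held 27. These are 9.24% and 3.01% of the tested positions of the segment, below the 12.6% and 3.93% over the whole rDNA. Of the higher runs 5 lay between positions 2418 and 2469. The longest of these, from 2437 to 2447, summed to 1170 and 1566 in paf1△, 691 and 455 in cdc73△ and 1210 and 1385 in WT. There the paf1△ and WT libraries overlapped and cdc73△ lay below both. The longest run of all, from 1669 to 1681, summed to 1933 and 1816 in paf1△, 971 and 768 in cdc73△ and 1518 and 1425 in WT. In the run from 1882 to 1891, which leads into the stretch low in all libraries, paf1△ was instead the lower. It summed to 1434 and 1443 in paf1△, 2534 and 2633 in cdc73△ and 2176 and 2332 in WT. The longest run higher in cdc73△ than in WT covered 23 positions, from 2341 to 2363, and summed to 6232 and 5683 in paf1△, 6934 and 7568 in cdc73△ and 2928 and 3213 in WT.

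The base before the RNA 3' end, looked at after the data were seen, set the signal apart in every library. Positions preceded by a guanine had 1.27 and 1.29 times the mean of the segment in paf1△, 1.21 and 1.16 in cdc73△ and 1.39 and 1.346 in WT, the highest of the 4 bases in each library. Positions preceded by an adenine had 0.916 and 0.931 times the mean in paf1△, 0.840 and 0.893 in cdc73△ and 0.730 and 0.752 in WT. The 3 genotypes did not overlap for either base, and the exact two-sided permutation p was 0.333 for each pair. Position 2498, the highest of the segment in both deletions, follows the adenine at 2497 and enters the adenine means. It had 4650 and 5678 in paf1△, 2155 and 2930 in cdc73△ and 658 and 952 in WT. Whether the genotypes stay apart for adenine without it was not tested.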
